A study of Homo sapiens with 72 samples.

Results

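The genes described here are 10 regulators and markers of the epithelial-mesenchymal transition (EMT), namely ZEB1, ZEB2, SNAI1, SNAI2, TWIST1, TWIST2, VIM, CDH2, FN1 and QKI. They were chosen by name, by a rule that uses no measured value, from 26485 gene symbols in the mRNA count tables, and were read in all 36 mRNA libraries and set beside miR-200c-3p in 36 small RNA libraries of the same cultures. The libraries fell into 9 groups of 4, each followed as its own group. They came from IGROV1, an ovarian cancer cell line that expresses the RNA-binding protein LIN28A, from DU145, a prostate cancer cell line labelled LIN28A negative, and from DU145 made to express LIN28A. Each line had a parental wild type (TUT4+, TUT7+) and 2 TUT4/7 double mutants (TUT4-, TUT7-), called mutant 1 and mutant 2. TUT4 and TUT7 are the terminal uridyl transferases that add uridines to the 3′ ends of RNAs.

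Each mutant was a CRISPR clone, made by targeting exon 12 of TUT4 and exon 14 of TUT7. The labels give 1 clone name to all libraries of DU145 mutant 1, while for the other mutants the last number of the clone name goes up with each replicate, and whether these were subclones is not given in the sources used here. The LIN28A-overexpressing DU145 groups were the DU145 wild type and the DU145 clones of the same names after lentiviral transduction with LIN28A cDNA under a CMV promoter and puromycin selection. The 4 replicates of a group were labelled as consecutive passages, so that p-values measure only the spread between those passages. They were passages 6 to 9 of IGROV1 wild type, 2 to 5 of its mutant 1 and 3 to 6 of its mutant 2. In DU145 they were passages P157 to P160 of the wild type, 9 to 12 of mutant 1 and 8 to 11 of mutant 2, and in all 3 LIN28A-overexpressing groups passages 1 to 4. IGROV1 was grown in RPMI-1640 and DU145 in EMEM, so that line, medium and passage cannot be told apart. With 1 clone name or series behind each mutant group, the mutation and the clone cannot be told apart either. IGROV1 mutant 1 and both untransduced DU145 mutants shared no labelled passage with their wild type, so mutation and passage cannot be told apart there.

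The mRNA libraries held 7195437 to 25054688 reads counted in genes, and the small RNA libraries 5703566 to 13957450 reads counted in miRNAs. TUT7 mRNA (listed as ZCCHC6) was lower in all 6 clones than in their wild types, by 0.85 to 1.60 on the log2 scale. TUT4 mRNA (ZCCHC11) was lower in 4 clones, and in DU145 mutant 2 (log2 fold change -0.56 ± 0.24 SE, FDR 0.0708) and its LIN28A-overexpressing derivative (-0.25 ± 0.24, FDR 0.465) it did not pass the test. An edit within an exon need not lower the mRNA, so that these levels check the labels only in part. LIN28A was at 0.456 CPM (counts scaled by library size) or less in DU145, 171 to 360 in IGROV1, 64.2 to 75.3 in the LIN28A-overexpressing wild type and 211 to 396 in its mutants. The Mullerian factor PAX8 was at 435 to 991 CPM in IGROV1 and at most 3.01 in DU145. The prostate factor HOXB13 did not mark the prostate line, at 5.01 to 26.5 CPM in IGROV1 and at most 0.117 in DU145 and its derivatives.

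Some libraries stood apart. In 5 mRNA libraries the genes with long transcripts (over 5384 bases) lay lower relative to those with short transcripts (under 2129 bases) than in the rest of their group, by more than 0.2 on the log2 scale. They were replicate 4 of both IGROV1 mutants (-0.576 and -0.414), replicate 1 of DU145 wild type (-0.317) and replicate 4 of both DU145 mutants (-0.276 and -0.245). ZEB1, ZEB2, FN1 and QKI have canonical transcripts of 5937 to 9384 bases, so each result on them was also computed without these 5 short-leaning libraries, a choice made after seeing the data. LIN28A-overexpressing wild type replicate 1 also stood apart, with a chi-square per gene of 85.83 to 122.41 against the other 3 replicates and 6.1 to 25.33 among those 3. In the miRNA table, the columns named for replicate 2 of LIN28A-overexpressing wild type and of LIN28A-overexpressing mutant 1 each matched the other library's own file best (r = 0.990 and 0.986 over 374 miRNAs), while the other 34 columns matched their own. In the own files of these 2 libraries, reads with added uridines were 1.708% of all miRNA reads for the wild type and 0.1% for mutant 1. The files thus fit their labels, and the 2 columns appear to be exchanged. The columns were kept as named for the main values, and most results that rest on them are also given without them.

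In an EMT, epithelial cells lose cell-cell junctions and take on a mesenchymal form. The zinc-finger factors ZEB1, ZEB2, SNAI1 (Snail) and SNAI2 (Slug) bind E-box elements and repress epithelial genes such as CDH1, which encodes E-cadherin, and the bHLH factors TWIST1 and TWIST2 take part in the same program. VIM (vimentin, an intermediate filament), CDH2 (N-cadherin) and FN1 (fibronectin, a matrix protein) are commonly used mesenchymal markers, and QKI is an RNA-binding protein that controls splicing and circular RNA formation during EMT. The miR-200 family represses ZEB1 and ZEB2 through sites in their 3′ UTRs, and ZEB1 and ZEB2 in turn repress the miR-200 genes.

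The mature miR-200 sequences are shown because the seed, bases 2 to 8 (capitals), decides which sites a miRNA can pair with, and it splits the family into 2 groups. The first 3 share a seed and the last 2 share the other, which differs from it at a single base. The genome is hg38 and all 5 lie on the plus strand.
hsa-miR-200c-3p, chr12:6963742-6963764: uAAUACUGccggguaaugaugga
hsa-miR-200b-3p, chr1:1167160-1167181: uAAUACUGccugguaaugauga
hsa-miR-429, chr1:1169055-1169076: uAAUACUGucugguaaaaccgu
hsa-miR-141-3p, chr12:6964155-6964176: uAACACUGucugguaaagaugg
hsa-miR-200a-3p, chr1:1167916-1167937: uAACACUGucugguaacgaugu

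The sequence complementary to the seed of miR-200b-3p, miR-200c-3p and miR-429, CAGTATT, was searched on the sense strand of the 3′ UTR of each canonical transcript. It was present in 16.49% of 17821 3′ UTRs. ZEB1 held 6 copies in 2540 bases, ZEB2 5 in 5370 bases, QKI 3 in 7882 bases, FN1 2 in 690 bases and SNAI2 1 in 1209 bases, and none was found in SNAI1, TWIST1, TWIST2, VIM or CDH2. Among 3′ UTRs within 10% of the same length, at least 1 copy was present in 26.6% for ZEB1, 44.1% for ZEB2, 62.8% for QKI and 6.1% for FN1. The miR-141/200a match, CAGTGTT, was present in 18.72% of all 3′ UTRs and occurred 3 times in ZEB1, 4 times in ZEB2 and 2 times in QKI. One miR-200c-3p match of each of the 4 members with more than 1 copy is shown, with the match in capitals. A match is a stretch of letters and no measurement of binding.
ZEB1, chr10:31527625-31527646, plus strand: tatcttatCAGTATTatcactc
ZEB2, chr2:144388983-144389004, minus strand: caatgcatCAGTATTatgattc
QKI, chr6:163573226-163573247, plus strand: ttggttctCAGTATTatcattc
FN1, chr2:215361297-215361318, minus strand: ataccgctCAGTATTttaaatg

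Of the 10 genes, 8 passed the filter on low counts and were tested among 15556 genes, and TWIST1 and CDH2 did not pass. Levels are CPM, counts divided by the library size after TMM scaling, as edgeR gives them, differences are log2 fold changes with their standard errors, and a gene was called where the edgeR quasi-likelihood test gave a Benjamini-Hochberg FDR under 0.01 over all genes tested. In IGROV1 mutant 1, QKI was higher and FN1 and VIM were lower, against 14.5% of all genes called higher and 16.6% called lower. In IGROV1 mutant 2, ZEB1 alone was called, and it was higher (all genes: 14.2% higher, 15.9% lower). In DU145 mutant 1, ZEB2 and SNAI2 were higher (10.4% higher, 11.3% lower), and in DU145 mutant 2, ZEB2 was higher and QKI lower (9.99% higher, 10.5% lower). In LIN28A-overexpressing mutant 1, ZEB2, SNAI2 and FN1 were higher (11.3% higher, 13.9% lower), and in LIN28A-overexpressing mutant 2, VIM was lower (10.5% higher, 10.1% lower). A count of 1 to 3 of the 8 genes tested in each clone is of the order of these backgrounds, so the result lies in which gene moved in which clone and by how much. In bulk cultures, fewer cells with a transcript and less of it per cell cannot be told apart.

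**Figure D1:**
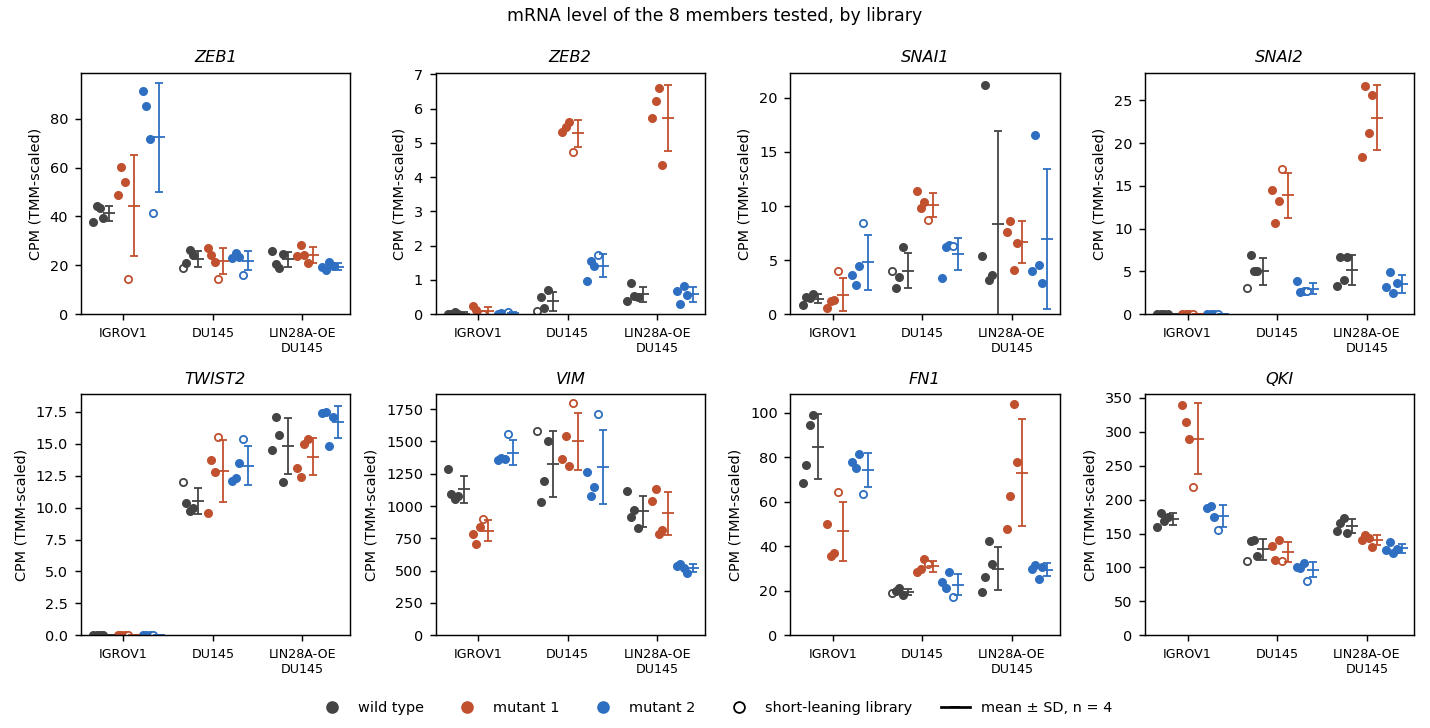
Level of the 8 genes that were tested in each of the 36 mRNA libraries (vertical axes, TMM-scaled CPM from 0), by line and, in colour, wild type, mutant 1 and mutant 2. Bars are mean ± SD (n = 4, cut at 0 where they would fall below it) and open points are the 5 short-leaning libraries. The ZEB2 panel shows DU145 mutant 1 at 4.72 to 5.61 CPM against 0.105 to 0.701 in the wild type, and SNAI2 and TWIST2 lie at 0 in all 12 IGROV1 libraries.

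ZEB1 (chr10:31318495-31529814), the repressor most directly tied to the miR-200 family, was expressed in every library and was highest in the IGROV1 mutants. IGROV1 wild type measured 37.8, 44.2, 43.5 and 39.5 CPM in replicates 1 to 4. Mutant 1 measured 48.9, 60.1, 54.2 and 14.3 CPM, and mutant 2 measured 91.2, 85.4, 71.7 and 41.4 CPM. In both mutants, 3 libraries lay above every wild-type library, and the fourth, which was the short-leaning one, lay below the others. With all libraries, ZEB1 was higher in mutant 2 (log2 fold change 0.81 ± 0.25, FDR 0.00826) and did not pass the test in mutant 1 (0.12 ± 0.25, FDR 0.737). Without the 5 short-leaning libraries it was higher in both, by 1.02 ± 0.12 in mutant 2 (FDR 2.94e-08) and by 0.42 ± 0.12 in mutant 1 (FDR 0.00482). The call in mutant 2 was lost on leaving out any 1 of the other 7 libraries of that comparison (FDR 0.0122 to 0.0388).

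In DU145, ZEB1 lay lower and did not separate the groups. DU145 wild type measured 19.1, 21.0, 26.2 and 24.2 CPM, mutant 1 measured 27.1, 24.3, 21.5 and 14.3 CPM, and mutant 2 measured 23.0, 25.2, 23.5 and 16.1 CPM. The 12 LIN28A-overexpressing libraries lay between 17.9 and 28.5 CPM, so that all the DU145 groups overlapped. The fitted differences from wild type ran from -0.20 ± 0.25 to 0.12 ± 0.25 and none passed the test. In order, the group means were 72.4 ± 22.2 CPM (SD, n = 4) in IGROV1 mutant 2, 44.4 ± 20.6 in mutant 1 and 41.3 ± 3.11 in wild type, and then 24.3 ± 3.18 or less in the 6 DU145 groups. IGROV1 mutant 1 and wild type, and each neighbouring pair of DU145 groups, differed by less than the larger of their SDs.

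ZEB2 (chr2:144364364-144521057), the second ZEB repressor, was close to absent from both parental lines and was found in DU145 mutant 1. DU145 wild type measured 0.105, 0.511, 0.182 and 0.701 CPM, and mutant 1 measured 5.31, 5.46, 5.61 and 4.72 CPM, with no overlap. Mutant 2 measured 0.976, 1.56, 1.40 and 1.74 CPM, between the other groups and overlapping neither. The differences from wild type were 3.83 ± 0.37 in mutant 1 (FDR 1.15e-09) and 1.94 ± 0.43 in mutant 2 (FDR 0.000645). The wild-type level rests on 14 reads in all. Without the short-leaning libraries, of which wild-type replicate 1 was the lowest of its group, the difference was 3.59 ± 0.39 in mutant 1 (FDR 4.67e-08), and in mutant 2 it was 1.54 ± 0.46 and no longer called (FDR 0.0110).

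The LIN28A-overexpressing derivatives of these clones shared the rise in mutant 1. ZEB2 measured 0.39, 0.902, 0.518 and 0.502 CPM in the LIN28A-overexpressing wild type and 5.72, 6.21, 6.59 and 4.36 CPM in mutant 1, a difference of 3.27 ± 0.32 (FDR 5.77e-10). Without wild-type replicate 1, which stood apart, it was 3.09 ± 0.33 (FDR 6.39e-09). LIN28A-overexpressing mutant 2 measured 0.666, 0.287, 0.819 and 0.553 CPM and overlapped its wild type (-0.01 ± 0.39, FDR 0.995). ZEB2 in mutant 2 was lower after LIN28A overexpression than before it (-1.28 ± 0.36, FDR 0.00682). In IGROV1, ZEB2 had 1 read in the wild type, 6 in mutant 1 and 2 in mutant 2, at most 0.245 CPM in any library. The ratio of mutant 1 to wild type on those reads was 7.87, with an exact 95% counting interval of 0.954 to 362.

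SNAI1 (chr20:49982980-49988886), the Snail repressor, varied widely between replicates, and no mutant passed the test for it. In IGROV1 it measured 0.871, 1.55, 1.47 and 1.87 CPM in the wild type, 0.613, 1.23, 1.34 and 4.0 CPM in mutant 1 and 3.59, 2.67, 4.44 and 8.46 CPM in mutant 2. All 4 libraries of mutant 2 lay above the wild type, and the difference, 1.70 ± 0.57, just missed the threshold (FDR 0.0160). In DU145, mutant 1 (11.4, 9.85, 10.4 and 8.73 CPM) lay above every wild-type library (4.0, 2.45, 3.46 and 6.20 CPM), at 1.34 ± 0.53 with FDR 0.0496. Mutant 2 (3.32, 6.24, 6.35 and 6.33 CPM) overlapped the wild type. In the LIN28A-overexpressing cells, replicate 2 was far above the others in the wild type (21.2 CPM against 3.18 to 5.40) and in mutant 2 (16.6 against 2.86 to 4.51), and the 3 groups overlapped.

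SNAI2, the Slug repressor, was present in DU145 and not detected in IGROV1. No read was counted in any of the 12 IGROV1 libraries, which allows at most 0.0425 CPM over the wild-type group (3 reads), and DU145 wild type was at least 118-fold higher. The pattern among the DU145 clones was a rise in mutant 1. DU145 wild type measured 3.06, 6.95, 5.01 and 5.03 CPM, mutant 1 measured 14.5, 10.7, 13.2 and 17 CPM and mutant 2 measured 3.91, 2.56, 2.66 and 2.66 CPM. Mutant 1 lay above every wild-type library, by 1.46 ± 0.26 (FDR 9.29e-05), and mutant 2 overlapped the wild type (-0.77 ± 0.28, FDR 0.0393). With LIN28A overexpressed, the wild type measured 3.34, 6.74, 4.0 and 6.63 CPM and mutant 1 measured 18.4, 26.7, 21.2 and 25.6 CPM. That rise was 2.16 ± 0.25 (FDR 1.90e-07, and 1.99 ± 0.25 without wild-type replicate 1), and mutant 2, at 3.14, 4.99, 2.46 and 3.59 CPM, again overlapped its wild type.

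TWIST2 (chr2:238848032-238910534) separated the lines far more than the genotypes. It had no read in the 12 IGROV1 libraries and measured 9.75 to 12 CPM in DU145 wild type, at least 248-fold above the IGROV1 wild-type limit of 0.0425 CPM. The other 5 DU145 groups lay between 9.62 and 17.5 CPM. DU145 mutant 2 (12.1, 12.3, 13.5 and 15.4 CPM) lay just above its wild type (12, 10.4, 9.75 and 9.94 CPM), and no mutant differed from its wild type by more than 0.34 ± 0.15 on the log2 scale (FDR 0.0858). TWIST1 (chr7:19020991-19117636) was the reverse at the lowest levels. It had 14 reads in IGROV1 wild type (0.272, 0.186, 0.210 and 0.165 CPM), none in mutant 1, 2 in mutant 2 and none in the 24 DU145 libraries. All 4 wild-type libraries lay above all 8 mutant libraries, with a wild-type level at least 3.56-fold the limit of 3 reads in mutant 1 and 7.28 times that of mutant 2 (exact 95% counting interval 1.67 to 66.0). TWIST1 was below the filter and was not tested.

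VIM (chr10:17228241-17237593) was the most abundant of the 10 genes. Per kilobase of canonical transcript the wild-type levels were 445 to 616 CPM per kb, against 13.5 to 18.2 for QKI, the next, and 11.1 or less for each of the others. VIM did not follow 1 direction among the mutants. IGROV1 wild type measured 1288, 1093, 1054 and 1077 CPM, mutant 1 measured 785, 707, 837 and 899 CPM and mutant 2 measured 1353, 1371, 1364 and 1559 CPM. Mutant 1 lay below every wild-type library (-0.48 ± 0.14, FDR 0.00671) and mutant 2 above (0.32 ± 0.14, FDR 0.0696, not called). The call in mutant 1 was lost on leaving out any 1 of its 8 libraries (FDR 0.0104 to 0.0314).

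In DU145 the VIM levels overlapped, at 1034 to 1578 CPM in wild type, 1310 to 1798 in mutant 1 and 1080 to 1712 in mutant 2. With LIN28A overexpressed, the wild type measured 1113, 917, 972 and 831 CPM, mutant 1 measured 1036, 1133, 785 and 816 CPM, and mutant 2 measured 538, 552, 519 and 478 CPM. Mutant 2 was thus below every other library of the series, at -0.88 ± 0.14 against its wild type (FDR 1.37e-05, and -0.80 ± 0.15 without wild-type replicate 1). It was also lower than the same clone without LIN28A (-1.32 ± 0.14, FDR 7.91e-08), and mutant 1 was lower with LIN28A than without by 0.67 ± 0.14 on the log2 scale (FDR 0.00307). CDH2 (chr18:27932879-28177946), the N-cadherin gene, had 3 reads in all 36 libraries and at most 0.0602 CPM, so that it marked no group.

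FN1 (chr2:215360440-215436073) moved in opposite directions in the IGROV1 and the DU145 clones numbered 1. IGROV1 wild type measured 68.3, 76.5, 94.6 and 99.2 CPM, mutant 1 measured 49.9, 35.8, 37.1 and 64.3 CPM and mutant 2 measured 77.9, 75, 81.3 and 63.7 CPM. Mutant 1 lay below every wild-type library (-0.86 ± 0.20, FDR 0.000898) and mutant 2 overlapped them (-0.19 ± 0.20, FDR 0.497). DU145 wild type was lower, at 18.8, 19.7, 21.4 and 18.2 CPM, with 28.5, 29.6, 34.1 and 32.2 CPM in mutant 1 and 24.0, 21.4, 28.6 and 17.3 CPM in mutant 2. The difference in mutant 1 did not overlap its wild type but just missed the threshold (0.67 ± 0.21, FDR 0.0144). With LIN28A overexpressed it was called: 19.3, 26.3, 42.6 and 31.9 CPM in the wild type against 48.0, 62.4, 104 and 77.7 CPM in mutant 1 (1.29 ± 0.21, FDR 8.15e-06). The lowest value of that wild type was replicate 1, the library that stood apart. Without it the difference was 1.12 ± 0.21, and leaving out any 1 library of the comparison gave 1.09 to 1.5 (FDR 9.27e-05 or less), and LIN28A-overexpressing mutant 2 (25.2 to 31.7 CPM) overlapped its wild type.

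QKI (chr6:163414000-163578592) rose in IGROV1 mutant 1 and was lower in DU145 mutant 2. IGROV1 wild type measured 160, 180, 169 and 174 CPM and mutant 1 measured 340, 314, 290 and 219 CPM, a difference of 0.77 ± 0.11 (FDR 1.04e-06). Mutant 2, at 187, 190, 174 and 155 CPM, overlapped the wild type (0.05 ± 0.11, FDR 0.777). In both mutants the short-leaning replicate 4 was the lowest, and without these libraries the difference in mutant 1 was 0.90 ± 0.08. In DU145 the wild type measured 109, 139, 140 and 117 CPM and mutant 2 measured 100, 99.1, 107 and 80.5 CPM (-0.39 ± 0.11, FDR 0.00864), while mutant 1 overlapped the wild type. That call was lost on leaving out wild-type replicate 2 or 3 or mutant 2 replicate 2 or 4 (FDR 0.0102 to 0.0326). With LIN28A overexpressed, all libraries of mutant 2 (121 to 138 CPM) lay below all wild-type libraries (151 to 173 CPM), at -0.33 ± 0.11 with FDR 0.0256, and with FDR 0.000532 without the short-leaning libraries, none of which belongs to those 2 groups. LIN28A-overexpressing mutant 1 (130 to 148 CPM) also lay below all these wild-type libraries, at -0.19 ± 0.11 with FDR 0.180.

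**Figure D2:**
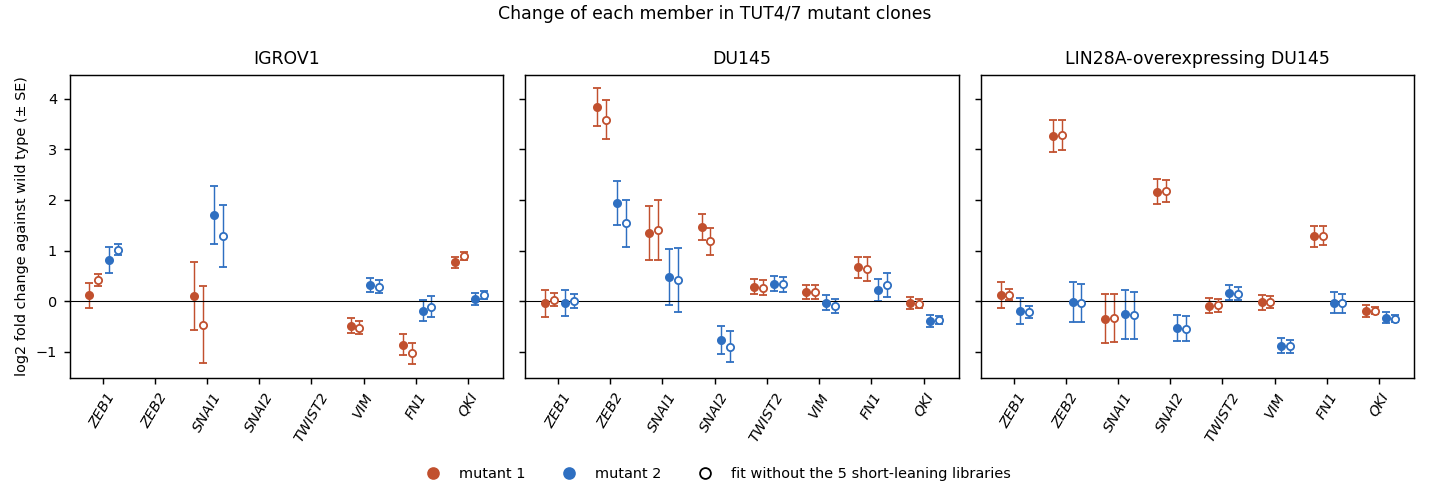
Log2 fold change against the wild type of the same line (vertical axis, ± SE from the edgeR fit) for 8 genes in mutant 1 and mutant 2 of each line. Filled points use all libraries and open points leave out the 5 short-leaning ones. ZEB2, SNAI2 and TWIST2 are left out for IGROV1, where they had almost no reads. ZEB2 in DU145 mutant 1 is the highest point, at 3.83, and the ZEB1 points of IGROV1 move up from 0.12 to 0.42 and from 0.81 to 1.02 without the short-leaning libraries.

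The 2 clones of a line were next compared with each other, to see which changes they shared. In IGROV1, QKI was higher in mutant 1 than in mutant 2 (0.72 ± 0.11, FDR 5.81e-06) and VIM lower (-0.81 ± 0.14, FDR 4.33e-05), against 18.8% of all genes called in either direction. ZEB1 was lower in mutant 1 (-0.70 ± 0.25, FDR 0.0337), as was FN1 (-0.68 ± 0.20, FDR 0.0116), and without the short-leaning libraries both passed the threshold (FDR 0.000413 and 0.00147). In DU145, SNAI2 (2.23 ± 0.27, FDR 2.81e-07) and ZEB2 (1.89 ± 0.30, FDR 3.58e-06) were higher in mutant 1, where 31.1% of all genes were called. With LIN28A overexpressed, ZEB2 (3.28 ± 0.31), SNAI2 (2.69 ± 0.25), FN1 (1.31 ± 0.21) and VIM (0.85 ± 0.14) were higher in mutant 1, at FDR 9.69e-06 or less, beside 37.6% of all genes. The 2 clones of a line thus differed in 2 to 4 of the 8 genes tested, and with all libraries no member passed the test in the same direction in both clones of IGROV1 or of LIN28A-overexpressing DU145, while ZEB2 did so in DU145. Without the short-leaning libraries ZEB1 did so in IGROV1 and ZEB2 no longer did in DU145.

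The parental lines differed in more members than any mutant did from its wild type. Against DU145 wild type, IGROV1 wild type had higher FN1 (2.11 ± 0.21, FDR 1.60e-10), ZEB1 (0.87 ± 0.26, FDR 0.00319) and QKI (0.43 ± 0.11, FDR 0.00114). SNAI2, TWIST2 and ZEB2 were lower in IGROV1. For ZEB2 the ratio of DU145 to IGROV1 wild type was 25.5, with an exact 95% counting interval of 3.88 to 1077 on 14 reads and 1 read. Over all genes, 60% were called between these lines, so that 6 of the 8 members tested is of the order of this background.

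With all libraries, LIN28A overexpression in wild-type DU145 moved no member past the threshold. Between the LIN28A-overexpressing and the untransduced DU145 wild type, edgeR called 0 of the 8 genes, against 9.21% of all genes, and DESeq2 also called 0. At an unadjusted p under 0.05, 5 of the 8 differed by edgeR and 4 by DESeq2, with TWIST2 (0.50 ± 0.15, FDR 0.0202) and VIM (-0.47 ± 0.14, FDR 0.0204) nearest to the threshold. Without LIN28A-overexpressing wild type replicate 1, a choice made after seeing the data, edgeR called 2, FN1 (0.78 ± 0.21, FDR 0.00452) and VIM (-0.55 ± 0.15, FDR 0.00602). Within mutant 1, FN1 was higher with LIN28A than without it (1.23 ± 0.21, FDR 0.000227) and VIM lower, beside 3.1% of all genes called. Within mutant 2, QKI was higher (0.40 ± 0.11, FDR 0.00684) and VIM and ZEB2 lower, beside 19% of all genes. The transduced and the untransduced cultures also differed in puromycin selection and passage, and these cannot be told apart. LIN28A mRNA itself was higher in LIN28A-overexpressing mutants 1 and 2 than in their wild type (2.40 ± 0.19, FDR 1.14e-11, and 1.78 ± 0.19, FDR 5.27e-09). In every comparison of these mutants with that wild type, the mutation and the LIN28A level therefore cannot be told apart.

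The difference of the mutant effect between lines was tested as an interaction, with the mean of both clones against wild type in each line. The test measures it against the spread between passages only, so a difference between lines and one between single clones cannot be told apart. In IGROV1, QKI rose in mutant 1 (0.77 ± 0.11) and not in mutant 2 (0.05 ± 0.11), and FN1 was called lower in mutant 1 alone. For FN1 the effect in IGROV1 minus that in DU145 was -0.97 ± 0.26 (FDR 0.00302), and for QKI it was 0.62 ± 0.14 (FDR 0.000584), beside 24.2% of all genes. For ZEB1 it was 0.51 ± 0.31 (FDR 0.213) with all libraries and 0.70 ± 0.15 (FDR 0.00055) without the short-leaning ones. Between LIN28A-overexpressing and untransduced DU145, 0.489% of all genes passed this test, and the members nearest to it were VIM (-0.53 ± 0.18, FDR 0.152) and ZEB2 (-1.26 ± 0.52, FDR 0.295).

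The miRNA side of the relation changed most in IGROV1. IGROV1 wild type had 5020, 4672, 5653 and 4874 CPM of miR-200c-3p, mutant 1 had 38.5, 35.1, 38.3 and 32.7 CPM, and mutant 2 had 28.4, 31.3, 26.3 and 26.2 CPM. The mutants lay over 100-fold below the wild type, at -7.13 ± 0.27 (FDR 9.11e-21) and -7.49 ± 0.28 (FDR 3.13e-21). Of all 830 miRNAs tested, 32.4% and 35.8% were called in these clones. miR-141-3p, which is made from the same transcript as miR-200c-3p, fell likewise from 142 to 241 CPM to at most 1.77 CPM (-7.21 ± 0.66 and -7.77 ± 0.68). The chromosome 1 cluster behaved otherwise. In mutant 2, miR-200a-3p (-2.45 ± 0.46), miR-200b-3p (-2.62 ± 0.40) and miR-429 (-2.68 ± 0.48) were lower, at FDR 5.06e-05 or less. In mutant 1 these 3 differed from wild type by -0.54 to -0.33 and were not called, and each was higher in mutant 1 than in mutant 2, by 2.08 to 2.15 (FDR 0.000609 or less). Still, miR-200b-3p (1473 to 1569 against 1930 to 2666 CPM) and miR-429 (440 to 551 against 617 to 918 CPM) lay below every wild-type library in mutant 1. For miR-200a-3p the libraries overlapped. The fit that gave these SEs includes the 2 mismatched columns.

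In DU145, mutant 1 was the clone with less miR-200c-3p. The wild type had 4040, 3954, 4114 and 4102 CPM, mutant 1 had 1844, 1875, 1705 and 1465 CPM, and mutant 2 had 3921, 4712, 3686 and 3215 CPM. Mutant 1 did not overlap the wild type (-1.23 ± 0.21, FDR 3.07e-05), and mutant 2 did (-0.06 ± 0.21, FDR 0.863). In mutant 1, miR-200a-3p (-1.63 ± 0.45), miR-200b-3p (-1.84 ± 0.39) and miR-429 (-1.97 ± 0.47) were lower too, at FDR 0.00469 or less. Of all miRNAs, 24% were called in mutant 1 and 18.6% in mutant 2. Between the parental lines, where 57% of all miRNAs were called, miR-200c-3p differed by 0.32 ± 0.21 (FDR 0.178).

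In the LIN28A-overexpressing cells the wild type had 2543, 1217, 3920 and 4545 CPM of miR-200c-3p and mutant 1 had 1803, 2594, 1833 and 1889 CPM, where replicate 2 of each is a column that matched the other library. As named, the difference was -0.59 ± 0.21 (FDR 0.0794), and 0% of all miRNAs were called by edgeR in this comparison, with 190 of 830 at an unadjusted p under 0.05 and 12 called by DESeq2. With both columns left out, miR-200c-3p was lower in mutant 1 (-1.06 ± 0.14, FDR 2.04e-07) and 281 miRNAs were called. The other 4 family members were then lower by 2.03 to 3.06 on the log2 scale, at FDR 2.31e-06 or less. Mutant 2 had 6184, 5708, 5708 and 7120 CPM of miR-200c-3p, above every wild-type library, at 1.02 ± 0.21 (FDR 0.000507) as named and 0.71 ± 0.14 (FDR 8.89e-05) with the columns left out. In that clone 12.5% of all miRNAs were called, and between the LIN28A-overexpressing and the untransduced wild type 8.43% were, with miR-200c-3p at -0.41 ± 0.21 (FDR 0.199). With the columns left out, the miRNAs called went from 104 to 180 in mutant 2 and from 70 to 98 between the wild types, where miR-200c-3p then differed by -0.15 ± 0.13 (FDR 0.491).

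**Figure D3:**
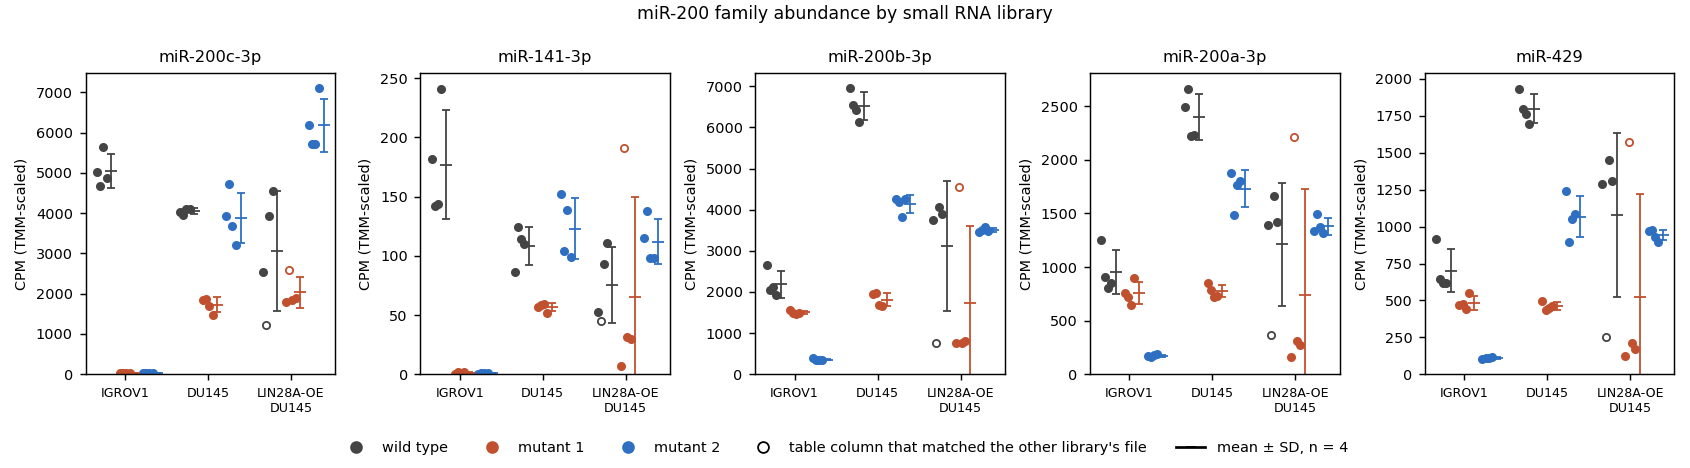
Abundance of the 5 miR-200 family members in each of the 36 small RNA libraries (vertical axes, TMM-scaled CPM), by line and, in colour, wild type, mutant 1 and mutant 2, with mean ± SD (n = 4, bars cut at 0 where they would fall below it). Open points are the 2 columns that matched the other library's file. miR-200c-3p drops from 4672 or more to 38.5 CPM or less in both IGROV1 mutants, and in LIN28A-overexpressing DU145 the open points lie with the opposite group.

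Set side by side, miR-200c-3p and the ZEB mRNAs moved in opposite directions in some clones and not in others. In IGROV1, where miR-200c-3p fell over 100-fold in both mutants, ZEB1 was the ZEB gene with reads, and it rose in mutant 2 and, without the short-leaning libraries, in both. There miR-200b-3p and miR-429, which share the seed of miR-200c-3p, changed less. miR-200b-3p measured 1930 to 2666 CPM in the wild type, 1473 to 1569 in mutant 1 and 338 to 383 in mutant 2. miR-429 measured 617 to 918, 440 to 551 and 103 to 118 CPM in the same order. In DU145 mutant 1, where miR-200c-3p fell by 1.23 on the log2 scale, ZEB2 rose by 3.83 ± 0.37 and ZEB1 differed by -0.05 ± 0.26. As far as miR-200c-3p goes, DU145 mutant 2 went against this pattern with all libraries, since ZEB2 rose by 1.94 ± 0.43 at a miR-200c-3p level that overlapped the wild type. In that clone miR-200b-3p and miR-429, which share the seed, lay below every wild-type library. They measured 3825 to 4269 against 6127 to 6961 CPM and 898 to 1243 against 1698 to 1933 CPM. Neither was called (FDR 0.203 and 0.230), in a fit that includes the 2 mismatched columns. In the groups of those columns the SD of miR-200b-3p was 1576 and 1885 CPM, against 345 and 211 in DU145 wild type and mutant 2. In LIN28A-overexpressing mutant 1, ZEB2 rose by 3.27 ± 0.32, with miR-200c-3p at -0.59 ± 0.21 as named and called lower with the mismatched columns left out. In LIN28A-overexpressing mutant 2, miR-200c-3p was higher by 1.02 ± 0.21 as named, while ZEB1 (-0.20 ± 0.25) and ZEB2 (-0.01 ± 0.39) were not called. QKI and FN1, which also hold CAGTATT matches, did not rise together. QKI rose in IGROV1 mutant 1 and not in mutant 2, and FN1 fell in IGROV1 mutant 1. With 9 groups of 3 related lines these levels are a description, and no correlation over groups was computed.

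**Figure D4:**
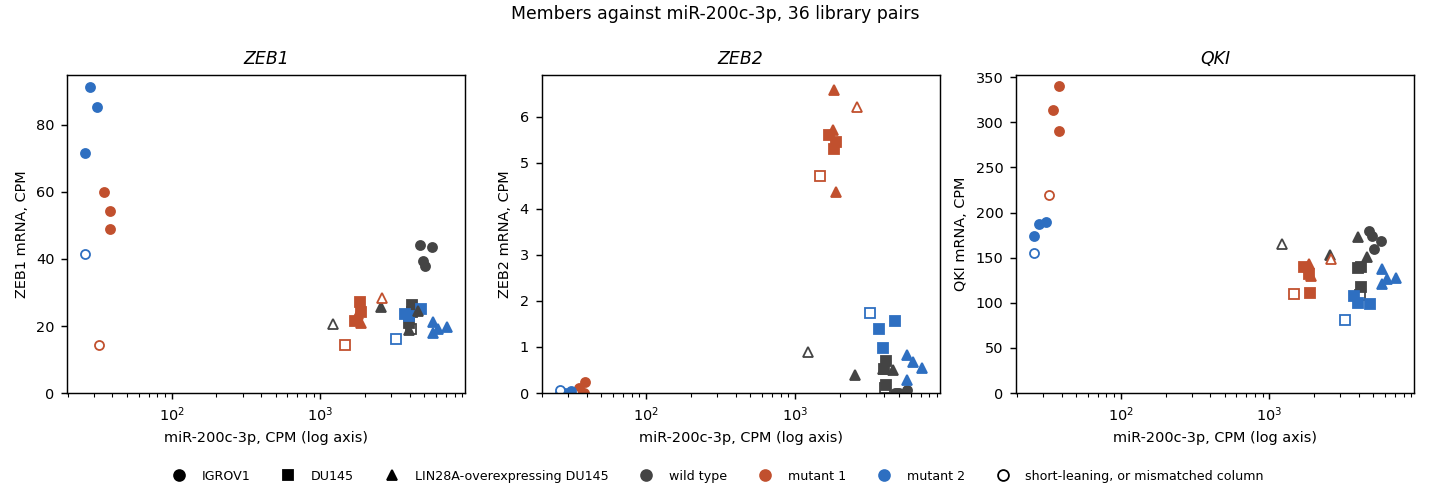
mRNA level of ZEB1, ZEB2 and QKI (vertical axes, CPM from 0) against miR-200c-3p in the small RNA library of the same group and replicate (horizontal axis, CPM, log scale) for 36 pairs. Shapes mark lines and colours wild type, mutant 1 and mutant 2, and open symbols are short-leaning libraries or mismatched columns. The 8 IGROV1 mutant pairs stand apart at 26.2 to 38.5 CPM of miR-200c-3p, and the 8 mutant 1 pairs of DU145, with and without LIN28A, are the ones with ZEB2 above 4 CPM.

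Within groups, replicates with more miR-200c-3p were not those with less ZEB1. After the group mean was taken from the log2 levels of each library, the 36 pairs gave a Pearson r of 0.265 for ZEB1 (permutation p = 0.0140, adjusted over the 8 genes 0.0560) and a Spearman rho of 0.515 (permutation p = 0.00281, adjusted 0.0225). Without the 2 pairs farthest from the median, r was 0.352. The ZEB1 rho rests on the mismatched columns: it was 0.249 (adjusted permutation p = 0.312) with them exchanged and 0.388 (adjusted permutation p = 0.0987) with them left out. Without the short-leaning libraries r was of similar size at 0.236 (adjusted permutation p = 0.927), and rho was 0.232 (adjusted permutation p = 0.775). For SNAI1, r was -0.556 (permutation p = 0.00971, adjusted 0.0560) and rho -0.427 (permutation p = 0.0218, adjusted 0.0872), and r was -0.325 without the 2 farthest pairs. With the mismatched columns exchanged, its r was -0.493 (adjusted permutation p = 0.0375), and with them left out -0.37 (adjusted permutation p = 0.0701). TWIST2 gave r = -0.502 (permutation p = 0.0244, adjusted 0.0650) and rho = -0.362 (permutation p = 0.0813, adjusted 0.217), and r was -0.292 without the 2 farthest. Its r was -0.28 (adjusted permutation p = 0.391) with the mismatched columns exchanged and -0.373 (adjusted permutation p = 0.215) with them left out. The other 5 genes had r between -0.149 and 0.215, with adjusted permutation p of 0.677 or more. VIM is 1 of these 5, and its value rests on the mismatched columns: r was -0.541 (adjusted permutation p = 0.0126) with them exchanged and -0.544 (adjusted permutation p = 0.0211) with them left out.

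The epithelial genes that ZEB and SNAI factors are known to repress were read from the same fit, for which 13 of the 16 listed genes were tested. In both IGROV1 mutants 9 of the 13 were lower and the other 4 did not pass the test, with median log2 fold changes of -2.36 and -2.73 beside 0 over all genes. Of all genes tested, 16.6% and 15.9% were called lower in mutants 1 and 2. Without the short-leaning libraries 11 and 10 of the 13 epithelial genes were lower. EPCAM, an epithelial adhesion protein, measured 82.7, 74.0, 89.7 and 79.7 CPM in IGROV1 wild type and at most 0.491 in either mutant (-7.96 ± 0.28 and -9.23 ± 0.30). ST14, which encodes the membrane protease matriptase, went from 25.8 to 34.9 CPM in the wild type to at most 0.224 (-7.87 ± 0.31 and -8.58 ± 0.31). ESRP2, an epithelial splicing regulator, was at 44.9 to 52.2 CPM in the wild type, at most 0.224 in mutant 1 and 2.03 to 3.14 in mutant 2 (-8.54 ± 0.31 and -4.32 ± 0.20). CRB3, a polarity protein, was lower by -5.04 ± 0.22 and -4.01 ± 0.19. CDH1 was low in this line to begin with, at 3.81, 4.09, 5.75 and 5.39 CPM, and measured 0.0614, 0.112, 0.559 and 3.39 CPM in mutant 1 and 0.0796 to 0.389 in mutant 2 (-2.81 ± 0.47 and -4.51 ± 0.52). The library at 3.39 CPM was the short-leaning one. These 9 genes fell in both clones, in mutant 1 too, where ZEB1 was called only without the short-leaning libraries.

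In DU145 mutant 1, in which ZEB2 and SNAI2 were both higher than in the wild type, 8 of the 13 epithelial genes were lower and 1 higher (median -1.04), among them EPCAM (-2.24 ± 0.18, FDR 3.46e-11), ST14 (-1.60 ± 0.19, FDR 4.68e-08) and CDH1 (-1.04 ± 0.29, FDR 0.00529). CDH1 stayed at 33.7 to 48.8 CPM there, from 75.8 to 93.4 in the wild type. Of all genes tested, 11.3% were called lower and 10.4% higher in that clone. In DU145 mutant 2, 3 of the 13 were lower and 1 higher (median -0.10), which is of the order of the 10.5% lower and 9.99% higher over all genes. The genes called in both DU145 clones were MAL2, a membrane trafficking protein (-2.34 ± 0.39 and -7.46 ± 0.59), the claudin CLDN4 (-2.44 ± 0.32 and -1.71 ± 0.31) and CDS1, a phospholipid enzyme, which was higher (0.65 ± 0.14 and 0.66 ± 0.14). With LIN28A overexpressed, 6 were lower and 1 higher in mutant 1 (median -0.76), beside 13.9% lower and 11.3% higher over all genes. In mutant 2, 1 was lower and 6 higher (median 0.21), beside 10.1% lower and 10.5% higher. In the latter, which had the most miR-200c-3p and the least VIM, ESRP1 (3.68 ± 0.33), ST14 (1.84 ± 0.18), OVOL2 (1.22 ± 0.33) and EPCAM (0.86 ± 0.17) were among the genes that rose. In both LIN28A-overexpressing clones MAL2 was lower (-1.41 ± 0.37 and -5.44 ± 0.48) and CDS1 higher (1.26 ± 0.14 in each).

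**Figure D5:**
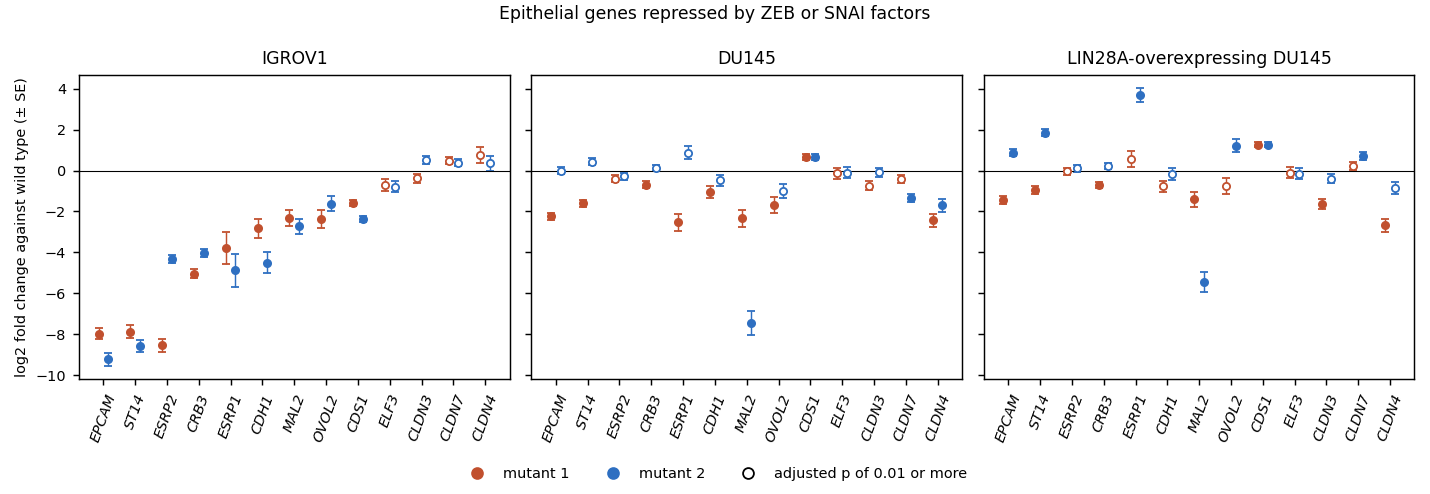
Log2 fold change against wild type (vertical axis, ± SE) of the 13 epithelial genes tested, in mutant 1 and mutant 2 of each line, with filled points for an adjusted p under 0.01 and open points for the rest. In IGROV1 the 9 genes called, such as EPCAM and ST14, lie below 0 in both clones, and in LIN28A-overexpressing DU145 mutant 2 the points of ESRP1, ST14, OVOL2 and EPCAM lie above 0.

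TGF-beta induces EMT, and 17 of 18 listed genes of its pathway were tested. In the order IGROV1 mutants 1 and 2, DU145 mutants 1 and 2 and LIN28A-overexpressing mutants 1 and 2, the numbers called higher were 2, 4, 7, 4, 4 and 3, and those called lower were 4, 4, 1, 5, 1 and 5. Over all genes, 9.99% to 14.5% were called higher and 10.1% to 16.6% lower in these clones, and several of these counts of 17 are near those shares. Median log2 fold changes were -0.24, -0.03, 0.46, -0.15, 0.02 and -0.10. LTBP1, which tethers latent TGF-beta to the matrix, was higher in both IGROV1 clones (1.21 ± 0.15 and 1.25 ± 0.15) and both DU145 clones (0.73 ± 0.17 and 0.61 ± 0.17). The co-receptor gene TGFBR3 was lower in the IGROV1 clones (-1.34 ± 0.22 and -0.85 ± 0.22) and higher in the DU145 clones (1.04 ± 0.26 and 1.71 ± 0.26). BAMBI, a pseudoreceptor that dampens the pathway, was higher in both DU145 clones (2.28 ± 0.23 and 1.82 ± 0.23) and both LIN28A-overexpressing ones (2.06 ± 0.20 and 1.10 ± 0.20).

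Of 20 other mesenchymal genes, 13 were tested, and in the same order of clones 2, 4, 5, 6, 4 and 4 were called higher and 5, 5, 0, 2, 1 and 1 lower, with medians of -0.94, -0.08, 0.89, 0.55, 0.24 and 0.35, beside the same 9.99% to 14.5% higher and 10.1% to 16.6% lower over all genes. Where edgeR called 0 lower, 2 were lower at an unadjusted p under 0.05, DESeq2 called 1 and the fit without the short-leaning libraries called 1. In both IGROV1 clones the receptor kinase AXL (-4.81 ± 0.35 and -3.92 ± 0.30), the matrix protein TNC (-4.0 ± 0.77 and -4.40 ± 0.73) and the hyaluronan receptor CD44 (-2.97 ± 0.16 and -2.52 ± 0.15) were lower, and smooth muscle actin, ACTA2, was higher (1.64 ± 0.24 and 1.08 ± 0.24). CD44 measured 73.2 to 85.3 CPM in the wild type and 7.42 to 15.7 in the mutants. In DU145 mutant 1 it was higher instead, at 630 to 740 CPM from 230 to 277 in the wild type (1.45 ± 0.14, FDR 1.49e-09), and it did not pass the test in DU145 mutant 2. In both DU145 clones FOXC1, a forkhead factor (2.04 ± 0.32 and 1.86 ± 0.32), the secreted glycoprotein gene FSTL1 (2.60 ± 0.13 and 1.00 ± 0.13) and S100A4, a calcium-binding protein (0.89 ± 0.23 and 0.78 ± 0.23), were higher. FSTL1 was also higher in both LIN28A-overexpressing clones (3.01 ± 0.13 and 1.44 ± 0.13).

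All 20 listed genes that have been reported as miR-200 family targets, apart from the members, were tested. In the same order of clones, 3, 3, 2, 2, 0 and 3 were higher and 4, 5, 4, 3, 3 and 5 lower, with medians between -0.14 and 0.08. Most of these counts of 20 are near the 9.99% to 14.5% called higher and 10.1% to 16.6% called lower over all genes. For the clone with 0 called higher by edgeR, 7 were higher at an unadjusted p under 0.05, DESeq2 called 0 and the fit without the short-leaning libraries called 3. In both IGROV1 clones, with over 100-fold less miR-200c-3p, BCL2, an inhibitor of apoptosis, was higher (2.84 ± 0.24 and 2.72 ± 0.24), as was WASF3, an actin regulator (1.22 ± 0.13 and 1.12 ± 0.13). The tubulin gene TUBB3 (-2.78 ± 0.39 and -3.16 ± 0.40) and the Notch ligand JAG1 (-1.52 ± 0.21 and -1.56 ± 0.21) were lower in both. BMI1, a Polycomb protein, was lower in both DU145 clones (-1.04 ± 0.23 and -0.98 ± 0.22) and both LIN28A-overexpressing ones (-1.58 ± 0.23 and -1.41 ± 0.23). SEC23A, a vesicle coat protein, was also lower, by 0.41 ± 0.12 and 0.51 ± 0.12 in DU145 on the log2 scale.

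Uridylation of miR-200c-3p itself, read from the deposited calls of 3′ additions, followed the genotype. Reads with a U tail were 4.44% to 5.773% of miR-200c-3p reads in the 12 wild-type libraries and 0.245% to 1.001% in the 16 mutant libraries of DU145 and its LIN28A-overexpressing derivative. In the IGROV1 mutants, with 183 to 484 reads of this miRNA per library, the share was 0% to 2.646%, where 0 of 183 reads allows a share of up to 1.64%. All mutant libraries thus lay below all wild-type libraries, in clones with less miR-200c-3p and in clones with more.

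For ZEB1, ZEB2 and QKI, the 3 members with the most CAGTATT matches, the genes most alike in pattern were read over the 36 mRNA libraries, as Pearson r of log2 CPM after the wild-type mean of the line was subtracted, among 15555 genes. These are descriptions over libraries that share clones and preparation. For ZEB1 they were NBN (0.892), ANKRD28 (0.885) and ZHX1 (0.880), and without the short-leaning libraries PSMB9 (0.891), FKBP5 (0.890) and TEX15 (0.888). For ZEB2 they were CD163L1 (0.908), PTPRS (0.887) and NYAP2 (0.877), of which CD163L1 (0.900) stayed among the first 3 without those libraries, beside CCND3 (0.903) and TOX (0.888). For QKI they were RMDN2 (0.899), GAREM (0.898) and LANCL1 (0.875), and without the short-leaning libraries SEC24C (0.929), GHITM (0.909) and COX15 (0.901). Among these first 3, no gene was shared by the 2 sets for ZEB1 or for QKI.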

How the data were processed

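RNA from 36 cultures was sequenced as poly(A) mRNA and as small RNA. For mRNA the authors trimmed reads with Trimmomatic 0.39, removed rRNA reads, aligned to hg38 with HISAT2 2.1.0 and deposited raw counts per gene from HTSeq. The annotation and strand setting are not given in the sources used here, so reads of overlapping antisense genes cannot be told apart. Rows naming no gene held 21.87% to 30.07% of reads and were left out. For miRNAs the authors deposited a table of miRDeep2 counts and per-sample counts of 3′ additions, with the 4 random bases at each read end trimmed. Intervals and limits of 3 reads cover counting error only.

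Counts were fitted here with edgeR 4.0.16 (R 4.3.3) in 1 quasi-likelihood model of 9 groups, with TMM scaling, filterByExpr and Benjamini-Hochberg FDR over 15556 genes or 830 miRNAs, threshold 0.01, after a check on simulated data. DESeq2 1.42.0 was an alternative. Log2 levels used a prior count of 1, and relations to miR-200c-3p used 100000 permutations within groups. For each line, genes of other lists were named when called in both clones in the same direction, up to 4 by mean size of change. Some results that this rule would name are not reported here. CDH1, CD44 in DU145 and the epithelial genes given for single clones were named after their values were seen. The members and lists were chosen with earlier results of these data known. GENCODE v44 gave positions for 23161 of 26485 symbols and the 3′ UTRs, and RefSeq the miRNA sequences.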

Additional observations from a re-analysis of the deposited data

Results flagged for a closer look

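Of 69 groups of 4 libraries with a mean of at least 1 CPM, 8 held a value far from the other 3 by Dixon's criterion, where chance gives about 1 in 20. SNAI1 had 3 of them. LIN28A-overexpressing wild type replicate 2 (21.2 CPM) and LIN28A-overexpressing mutant 2 replicate 2 (16.6 CPM) were high, and DU145 mutant 2 replicate 1 (3.32 CPM) was low. SNAI2 was high in the same DU145 library (3.91 CPM). TWIST2 was low in LIN28A-overexpressing mutant 2 replicate 3 (14.8 CPM). VIM was high in IGROV1 wild type replicate 1 (1288 CPM) and in IGROV1 mutant 2 replicate 4 (1559 CPM), which is a short-leaning library. The value of miR-200c-3p in the column named LIN28A-overexpressing mutant 1 replicate 2 (2594 CPM) was high, and this column matched the file of wild type replicate 2.

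The mutant effect, as the mean of both clones, differed between IGROV1 and DU145 for FN1 (-0.971, edgeR interaction, FDR 0.00302) and for QKI (0.621, FDR 0.000584). In IGROV1, QKI differed from wild type by 0.769 in mutant 1 and 0.047 in mutant 2, and FN1 by -0.861 and -0.185. A difference between lines and one between single clones cannot be told apart here. FN1 was lower in 4 of 4 libraries of IGROV1 mutant 1 and higher in 4 of 4 of DU145 mutant 1 than in any library of their wild types.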

How the results depend on the processing

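Over 43 results, 444 alternative values were computed, of which 383 kept their direction and side of the threshold or, for a count, stayed within 1.5 times the reported count, and none reversed. The number of members called moved by more than that in 4 comparisons with wild type and 2 others. Within it, IGROV1 mutant 1 (3 as reported) gave 2 by DESeq2, with RLE factors or on leaving out any 1 library and 4 without the filter or without the short-leaning libraries, and DU145 mutant 1 (2) gave 3 by DESeq2. For IGROV1 mutant 2 (1 as reported) it was 2 at FDR 0.05, 2 by DESeq2, 2 with a replicate block and 0 with the line's 12 libraries alone, and 0 to 1 on leaving out a library. For DU145 mutant 1 (2) it was 4 at FDR 0.05 and 4 with the line's libraries alone. For DU145 mutant 2 (2) it was 1 without the filter, 1 with the line's libraries alone and 1 without the short-leaning libraries, and 1 to 2 on leaving out a library. For LIN28A-overexpressing mutant 2 (1) it was 2 at FDR 0.05, 2 by DESeq2, 2 with the line's libraries alone and 2 without the short-leaning libraries. Between the IGROV1 clones it was 4 in place of 2 without the short-leaning libraries, and between LIN28A-overexpressing and untransduced DU145 wild type 2 in place of 0 without LIN28A-overexpressing replicate 1.

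For miR-200c-3p in LIN28A-overexpressing mutant 1 (-0.59), the log2 fold change was -1.01 with the mismatched columns exchanged, -1.06 with them left out, -1.07 from the per-sample files and -0.84 to -0.32 on leaving out a library. In LIN28A-overexpressing mutant 2 it was 0.97 (FDR 0.0824) with the line's libraries alone, and between the parental lines 0.43 (FDR 0.00639) from the per-sample files. The relation to miR-200c-3p passed an adjusted permutation p of 0.05 for ZEB1 without TMM (r = 0.32), SNAI1 with the columns exchanged (r = -0.493) and VIM with them exchanged (r = -0.541) or left out (r = -0.544). VIM in IGROV1 mutant 1 was also lost by DESeq2 (FDR 0.0135) and with RLE factors (FDR 0.0195). Except where construction shows it, the cause was not tested.

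Replicate numbers did not pair the samples over the whole series. Of 24 pairs of same-numbered mutant and wild-type libraries, 12 deviated together at r above 0.1 (-0.235 to 0.526), and 21 of 36 libraries correlated best with their own number. In LIN28A-overexpressing DU145 it was 7 of 8 pairs, with all 4 of mutant 2 (0.138 to 0.462), and there the block changed no count of members called. With a replicate block, 1 more member passed in IGROV1 mutant 2 (SNAI1, FDR 0.00913) and 1 more in DU145 mutant 1 (FN1, FDR 0.0085).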
